A study of Xenopus laevis with 12 samples.

Results

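The genes described here are the interferon, NF-kB and JAK-STAT signalling genes, measured in neural crest tissue from Xenopus laevis, an African clawed frog, after injection of a morpholino, a synthetic antisense oligonucleotide analogue. Members were chosen by name, as every row whose symbol starts with that of an interferon regulatory factor (irf), a STAT factor, a JAK kinase, a suppressor of cytokine signalling (socs), an NF-kB subunit, inhibitor or kinase, a Toll-like receptor, a TRAF adaptor, or one of the innate sensors, adaptors and effectors myd88, mavs, ifih1, rigi, tbk1, isg15, mx1 and mx2. The rule found 86 of 19252 genes, which carry 53 symbols once the long-chromosome (.L) and short-chromosome (.S) copies of this allotetraploid frog, called homeologs, are joined. Of these 86, 83 were in the stage 14 table, 85 in the stage 17 table and 82 in both.

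The 12 samples form 4 groups of 3, an arm with a morpholino against the microRNA miR-196a and an arm with a mismatch morpholino, each at Nieuwkoop and Faber stage 14 and at stage 17 of neurulation. All embryos were wild-type and received morpholino, given as 60 ng in the labels, in the right dorsal blastomere when they had 4 cells. Both arms of a comparison therefore carried an oligonucleotide, and a reaction that both share leaves no difference between them. Uninjected embryos were not analysed here. Whether the tissue came from the injected side of the embryo is not given in the sources used here. Comparing the arms shows how transcript levels, here those of signalling genes, differ between the miR-196a morpholino and the mismatch morpholino. Whether a difference comes from loss of miR-196a or from another effect of that oligonucleotide was not tested.

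In vertebrates, Toll-like receptors and cytosolic RNA sensors pass signals through adaptors such as MyD88, MAVS and the TRAF proteins to the IKK and TBK1 kinases. IKK releases NF-kB from its inhibitors, and TBK1 activates interferon regulatory factors that induce interferons. Interferons and other cytokines act through JAK kinases and STAT factors, which induce antiviral genes such as mx1 and the SOCS proteins that shut the pathway off again. In embryos of the related frog Xenopus tropicalis, morpholinos have been described to induce innate immune genes. No sequence is shown, because no file used here holds one.

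The values come from the authors' deposited tables, 1 per stage, which list for every gene its normalised count averaged over the comparison, the log2 fold change, its standard error (SE) and p-values before and after adjustment. Single samples cannot be shown, since sample values were not used here. Which arm is the numerator is not stated. Signs are given as deposited, so a positive value stands for more transcript in whichever arm is the numerator. Comparisons between the stages assume that the numerator is the same arm at both, which is not stated either. Levels of each arm were computed from the mean and the fold change, taking both arms as equal in size, with a floor of 3 normalised counts for any arm at that level or lower. A level given below as a multiple of the floor carries no allowance for error and sets no lower limit on a difference. In a bulk tissue, fewer cells of a type and less RNA per cell cannot be told apart.

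Marker genes of the labelled tissue were present at both stages. The 12 rows of 6 neural crest markers had, per the authors' deposited tables, mean normalised counts from 68.4 to 5066 at stage 14 and from 650 to 11745 at stage 17. Summed counts of the epidermal marker rows were larger, but the keratin row krt70.S made up much of them. At stage 14 the epidermal rows summed to 21830 normalised counts in the numerator arm and 124103 in the denominator arm, against 3052 and 29370.5 for the crest rows. At stage 17 the sums were 48454 and 148521, against 37651 and 78461. The row krt70.S alone was at 16922 and 80690 at stage 14 and at 33420 and 76822 at stage 17. Such sums depend on the rows chosen and do not measure how much of each tissue was present. The arms differed in tissue markers. The median log2 fold change of the neural crest markers by the authors' deposited tables was -3.38 at stage 14, where 11 of 12 were past the threshold, and -1.04 at stage 17, where 3 of 12 were. For 9 rows of epidermal markers it was -2.62 and -1.20, with 6 of 8 tested rows and 5 of 9 past the threshold, all negative. For 5 rows of neural plate markers it was 0.78 and 4.06 in the authors' deposited tables, with 2 of 5 and 5 of 5 past the threshold, all positive. Their part in the results below was not tested. Of 9 markers of primitive myeloid cells, the earliest innate immune cells of the frog embryo, 4 symbols were found at each stage, and spib and mpo, which define them, were not analysed here. The rows of these 4 symbols summed to 143 normalised counts in the numerator arm and 90.2 in the denominator arm at stage 14, and to 109 and 92.9 at stage 17, most of it coro1a.S, and 0 of them were past the threshold by the authors' test at either stage, with 0 at an unadjusted p-value under 0.05.

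At stage 14, 6 of the 82 members with an adjusted p-value (7.32%) were past the threshold of 0.05 per the authors' deposited table, against 8.68% of all genes tested. The 4 positive members included irf5.L and traf3.S, against 3.06% of all genes called in that direction, and the 2 negative ones were tlr9.L and irf2bpl.S, against 5.62%. At stage 17, 5 of 80 (6.25%) were past it, against 9.96% of all genes. The 2 positive members included socs3l.L, with 4.96% of all genes called positive, and the 3 negative ones were traf4.L, stat2.L and jak1.L, with 5.00% of all genes called negative. These shares lie near those of all genes, and no test was made between them. The called counts of single families and lists below stand against the same 8.68% at stage 14 and 9.96% at stage 17. The stage 17 share is over the 16965 genes analysed here that have an adjusted p-value, while the authors' adjustment there rested on 22197. In families of so few rows, a low count says little. An unadjusted p-value below 0.05 was reached by 11 members at stage 14 and 12 at stage 17, where 18.0% and 19.8% of all genes reached it. Unadjusted counts of single families and lists below stand against these 2 shares. Of 78 members with an adjusted p-value at both stages, 1 was past the threshold at each, against 3.61% of all genes.

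The members as a whole had no common direction. By the authors' deposited tables, 44 of 83 were positive at stage 14 and 45 of 85 at stage 17, with median log2 fold changes of 0.17 and 0.05 against 0.02 and 0.01 over all genes. They were expressed at lower levels and measured with larger errors than genes in general. The median mean normalised count of the members was 63.8 at stage 14 and 75.4 at stage 17, against 162 and 160 for all genes, and the median SE 0.81 and 0.70 against 0.55 and 0.51. A 95% interval (the log2 fold change plus or minus the normal quantile times its SE) that lay entirely between -1 and 1 was found for 6 of 83 members (7.23%) at stage 14, against 20.4% of all genes, and for 11 of 85 (12.9%) at stage 17, against 23.2%. Between -2 and 2 lay the intervals of 39.8% and 49.4% of the members, against 54.7% and 57.2%. For most members the interval therefore reached beyond a log2 unit in at least 1 direction.

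**Figure D1:**
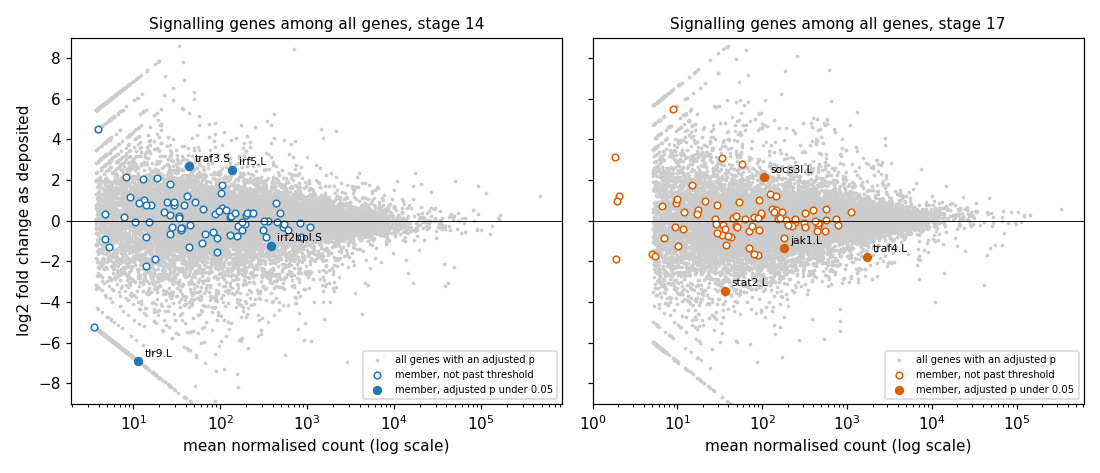
Log2 fold change as deposited (vertical axis, drawn from -9 to 9) against mean normalised count (horizontal log axis) at stage 14 and stage 17, with all genes that have an adjusted p-value in grey, members as open circles and members past the threshold as filled, named circles. The members spread on both sides of 0 at both stages, and of the members drawn, 4 are filled at stage 14 and 4 at stage 17.

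Among the sensors at the head of these pathways, 1 of 8 rows of receptors, adaptors and TBK1-type kinases was past the threshold at stage 14 and 0 of 8 at stage 17 by the authors' deposited tables, with 3 and 1 rows at an unadjusted p-value under 0.05. The called gene was tlr9.L, which encodes a Toll-like receptor that in mammals detects unmethylated CpG DNA. At stage 14 the authors' deposited table gave tlr9.L a mean of only 11.5 normalised counts (adjusted p = 0.0236). Its numerator arm was at the floor and its denominator arm at 22.7 normalised counts, 7.57-fold the floor. The 95% interval of its log2 fold change ran from -11.2 to -2.62. At stage 17 both arms were low, at 4.94 and 8.79 normalised counts, and the log2 fold change in the authors' deposited table was -0.83 (SE 2.17). For tlr5.L, the flagellin receptor, the authors' deposited tables gave -0.63 (SE 1.05) at stage 14 and -1.67 (SE 0.73, adjusted p-value 0.140) at stage 17, where its arms were at 42.4 and 135 normalised counts. The cytosolic double-stranded RNA sensor ifih1.L (MDA5) had nearly level arms, at 29.6 and 24.1 normalised counts at stage 14 and 28.5 and 26.6 at stage 17. Its 95% intervals, from -1.66 to 2.26 and from -1.59 to 1.79, leave room for changes of more than a log2 unit. The sensor genes tlr3 and rigi and the adaptor mavs were not analysed here.

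The adaptor myd88, which links most Toll-like receptors to NF-kB, was measured from both copies. Its log2 fold changes per the authors' deposited tables were 0.29 (SE 0.56) for myd88.L and -0.23 (SE 0.52) for myd88.S at stage 14, and 0.51 (SE 0.49) and 0.09 (SE 0.50) at stage 17, each with an interval that included 0. The kinases TBK1 and IKK-epsilon, which activate interferon regulatory factors, differed in sign at stage 14. For tbk1.L the log2 fold change per the authors' deposited table was -1.54 (SE 0.58, adjusted p-value 0.0764), with arms at 46.9 and 136 normalised counts, and that of ikbke.S 1.74 (SE 0.68, adjusted p-value 0.0946), with arms at 163 and 48.8. Neither was past the threshold, and at stage 17 the values by the authors' deposited table were -0.32 (SE 0.70) and 0.58 (SE 0.52). The other copy, tbk1.S, had 0.77 (SE 0.94) and -0.25 (SE 0.66) in the authors' deposited tables.

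The TRAF adaptors carry signals from cytokine and Toll-like receptors, and 1 of their 11 rows was past the threshold at each stage per the authors' deposited tables. At stage 14 it was traf3.S, an adaptor that in mammals promotes interferon induction and restrains the alternative NF-kB route. Its arms were at 74.8 and 11.7 normalised counts, and the authors' deposited table put the log2 fold change at 2.67 (SE 0.92, adjusted p-value 0.0445), close to the threshold. At stage 17 its value by the authors' deposited table was 0.95 (SE 0.69, adjusted p-value 0.477), and its homeolog traf3.L had 0.94 (SE 1.36) and 0.21 (SE 0.79). At stage 17 the called gene was traf4.L. TRAF4 takes little part in innate signalling and in Xenopus has been described as a regulator of BMP and Nodal signalling in neural crest formation. The authors' deposited table put traf4.L at a difference of -1.77 on the log2 scale (SE 0.43, adjusted p-value 0.00129), with arms at 772 and 2640 normalised counts. At stage 14 its arms were at 182 and 204 normalised counts, and the log2 fold change in the authors' deposited table was -0.16 (SE 0.68). The stages were normalised separately, so these levels are set side by side only.

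The SE of traf4.L was large for its level, larger at stage 17 than that of 98.6% of the 500 genes with the nearest mean count. Its homeolog traf4.S was low, with arms at 27.1 and 30.3 normalised counts at stage 17. The adaptor traf6, which relays Toll-like and interleukin receptor signals to IKK, passed the threshold in neither copy, with log2 fold changes per the authors' deposited tables of -0.07 (SE 0.48) for traf6.L and -0.47 (SE 0.46) for traf6.S at stage 14, and -0.22 (SE 0.43) and -0.52 (SE 0.32) at stage 17. For traf7.L, whose product binds the kinase MEKK3 in mammals, the authors' deposited tables gave 0.86 (SE 0.34, adjusted p-value 0.103) and 0.01 (SE 0.31).

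The kinases, subunits and inhibitors of NF-kB included some of the best measured members, and none of them was past the threshold. By the authors' deposited tables, 0 of 13 tested rows were called at stage 14 and 0 of 14 at stage 17, with 0 at an unadjusted p-value under 0.05 at either stage. Of all genes analysed here with an adjusted p-value, 8.68% and 9.96% were called, so that 0 of so few rows says little by itself. The genes nfkbia and nfkbie encode inhibitors of NF-kB, and nfkbia is a textbook target of NF-kB itself. At stage 14 the arms of nfkbia.L were both at 355 normalised counts, with a 95% interval of the log2 fold change from -0.82 to 0.82, and at stage 17 the interval ran from -0.77 to 0.63. For nfkbie.S the intervals were -0.85 to 0.80 and -0.65 to 0.48. The transactivating subunit rela.L, at means of 1083 and 1115 normalised counts by the authors' deposited tables, had intervals of -0.84 to 0.28 and -0.08 to 0.96. For the kinase ikbkb.L the log2 fold change was -0.32 (SE 0.37) at stage 14 and -0.09 (SE 0.30) at stage 17 by the authors' deposited tables. For the genes with both intervals between -1 and 1 (nfkbia.L, nfkbie.S and rela.L), a change of a full log2 unit was outside the error at both stages.

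The other NF-kB genes were lower and less precise. In the authors' deposited tables nfkbia.S had log2 fold changes of 0.61 (SE 0.72) and 0.09 (SE 0.80), nfkb2.L 1.04 (SE 1.62) and 0.76 (SE 0.87), and nfkb2.S 0.34 (SE 0.67) and 0.41 (SE 0.53). The gene nfkb1, which encodes the p50 precursor, was in the stage 17 table only, with means of 9.34 normalised counts for nfkb1.S and 1.83 for nfkb1.L. The 95% interval for nfkb1.S ran from -3.56 to 2.96, which covers large changes in either direction.

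**Figure D2:**
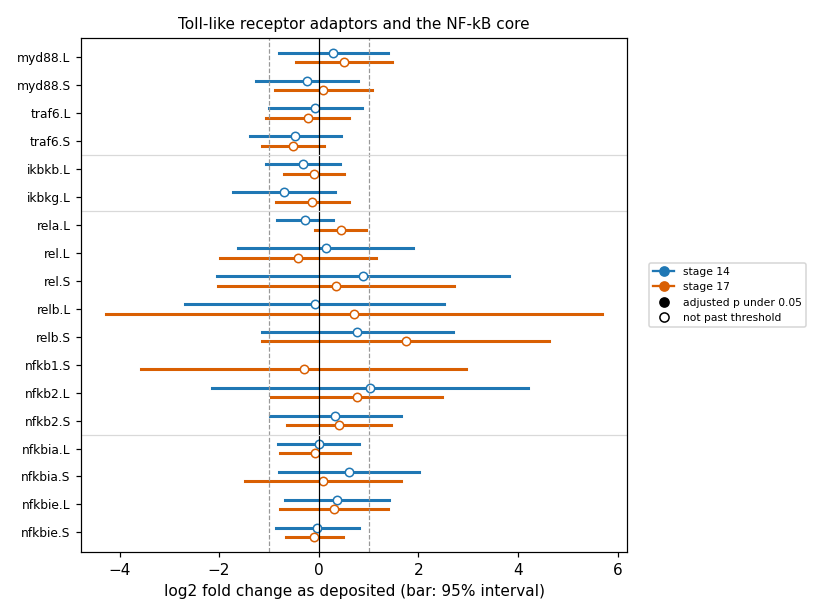
Log2 fold changes as deposited (horizontal axis) with their 95% intervals for the Toll-like receptor adaptors, the IKK kinases, the NF-kB subunits and the NF-kB inhibitors (rows), stage 14 in blue and stage 17 in orange, with dashed lines at -1 and 1. All points are open, since no gene shown was past the threshold, and the intervals of nfkbia.L, nfkbie.S and rela.L stay between the dashed lines.

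Of the interferon regulatory factors, 3 of 12 tested rows were past the threshold at stage 14 and 1 of 9 at stage 17 by the authors' deposited tables. These rows were positive, a direction in which 3.06% and 4.96% of all genes were called. The rows are few, and no test was made against those shares. A called interferon-inducing factor was irf5.L, which in mammals acts below MyD88 to induce cytokines and interferon. At stage 14 its arms were at 235 and 41.6 normalised counts, and the authors' deposited table put the log2 fold change at 2.50 (SE 0.59, adjusted p-value 8.47e-04). At stage 17 they were at 121 and 60.0, with 1.02 (SE 0.55, adjusted p-value 0.280). Its homeolog irf5.S was low, with arms at 30.2 and 6.92 normalised counts, and its log2 fold change was 2.12 (SE 1.30, adjusted p-value 0.382) at stage 14 by the authors' deposited table. At stage 17 irf5.S had the opposite sign to irf5.L, -1.65 (SE 2.14) per the authors' deposited table, with no adjusted p-value given and a numerator arm at the floor. RefSeq places the genes on assembly Xenopus_laevis_v10.1, where the span of irf5.L overlaps 1 other protein-coding gene, LOC108711247. The libraries were unstranded, and reads of the overlapping genes cannot be told apart by strand. The other called members have no such overlap in that annotation.

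The family members that belong to the interferon response proper were not past the threshold. For irf1, an early interferon-induced gene, the log2 fold changes per the authors' deposited tables were -0.36 (SE 0.91) for irf1.L and -0.29 (SE 1.31) for irf1.S at stage 14, and 0.55 (SE 1.44) and -0.19 (SE 1.13) at stage 17. For irf9, the DNA-binding subunit of the interferon-activated STAT complex, they ranged from -0.43 to 0.88 over both copies and stages. The copies of irf8 had means of at most 5.22 normalised counts by the authors' deposited tables. The genes irf3 and irf7, the targets of TBK1, were not analysed here.

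**Figure D3:**
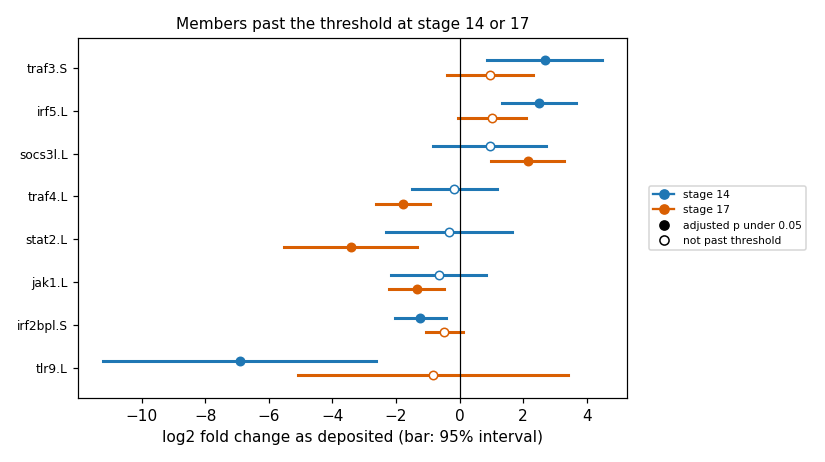
Log2 fold changes as deposited (horizontal axis) with their 95% intervals for 8 members past the threshold at stage 14 or stage 17 (rows), stage 14 in blue and stage 17 in orange, with filled points past the threshold. Each of these members is filled at 1 stage, irf5.L, traf3.S, tlr9.L and irf2bpl.S at stage 14 and socs3l.L, traf4.L, stat2.L and jak1.L at stage 17.

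The interferon-induced effector mx1.L was close to the floor. Its arms were at 13.6 and 3.05 normalised counts at stage 14 and at 2.52 and 8.45 at stage 17, on opposite sides. The 95% intervals of its log2 fold change, from -2.69 to 6.99 and from -7.05 to 3.56, cover large changes in either direction. The effector genes isg15 and mx2 were not analysed here. A list of other interferon receptors, sensors and effectors was represented by 26 rows at stage 14 and 22 at stage 17. By the authors' deposited tables, 0 of 21 tested rows were past the threshold at stage 14, with 1 at an unadjusted p-value under 0.05, and 1 of 20 at stage 17, with 2. The medians were 0.07 and 0.04. The row il10rb.L of this list had 4.45 (SE 1.78) at stage 14, at a mean of 27.8 normalised counts. No p-value was given for it there, so it could not be called. In stage 17 tissue il10rb.L had the opposite sign, -2.10 (SE 1.81, adjusted p-value 0.574 by the authors' deposited table). The called gene was ifi30.L, an interferon-inducible lysosomal thiol reductase, with 1.41 (SE 0.45, adjusted p-value 0.0220) at stage 17 and 0.79 (SE 0.35, adjusted p-value 0.164) at stage 14 by the authors' deposited tables. Its homeolog ifi30.S had the opposite sign, with -0.85 (SE 0.63) at stage 17 and -0.66 (SE 0.81) at stage 14, and was not past the threshold. The interferon-inducible RNA-editing enzyme adar.S, well expressed in both arms, had 95% intervals of -0.63 to 0.40 at stage 14 and -0.34 to 0.62 at stage 17. The double-stranded RNA-activated kinase eif2ak2.L (PKR) had log2 fold changes of -0.54 (SE 0.54) and 1.40 (SE 1.19) per the authors' deposited tables, neither past the threshold.

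Of the JAK kinases, which start signalling at cytokine receptors, 0 of 6 rows were past the threshold at stage 14, with 0 at an unadjusted p-value under 0.05, and 1 of 6 at stage 17, with 2, by the authors' deposited tables. At stage 17 the arms of jak1.L, the kinase shared by the interferon and interleukin-6 receptor families, were at 101 and 257 normalised counts. The authors' deposited table put the log2 fold change at -1.35 (SE 0.44, adjusted p-value 0.0259) there and -0.66 (SE 0.77, adjusted p-value 0.743) at stage 14. Its homeolog jak1.S had 1.22 (SE 0.86) at stage 14 and -1.18 (SE 0.79) at stage 17 by the authors' deposited tables. The interferon receptor kinase tyk2.L, with 818 normalised counts on average at stage 14 per the authors' deposited table, was bounded more tightly, with 95% intervals of -0.73 to 0.51 and -0.49 to 0.64. The lymphoid kinase gene jak3.L was in the numerator arm alone above the floor, at 7.62 normalised counts at stage 14 and 17.6 at stage 17. At stage 17 the numerator arm was at 5.85-fold the floor. The 95% interval of the log2 fold change ran from 0.22 to 10.8, and jak3.L was not past the threshold (adjusted p = 0.212 by the authors' deposited table).

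Among the STAT factors 0 of 8 rows were past the threshold at stage 14, with 0 at an unadjusted p-value under 0.05, and 1 of 7 tested rows at stage 17 by the authors' deposited tables. The called gene was stat2.L, a factor of the type I interferon response. Its arms at stage 17 were at 6.18 and 66.5 normalised counts, and the authors' deposited table put the log2 fold change at -3.43 (SE 1.06, adjusted p-value 0.0188). In stage 14 tissue they were at 31.8 and 40.0, with -0.33 (SE 1.01, adjusted p-value 0.932). The neighbouring copies of stat3, stat3.1.L and stat3.2.L, had 0.40 (SE 0.81) and 0.57 (SE 0.82) at stage 14, and 1.22 (SE 0.70, adjusted p-value 0.317) and 0.16 (SE 0.58) at stage 17 per the authors' deposited tables. How the counting shared out reads between such similar genes is not given in the sources used here.

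The SOCS genes encode feedback inhibitors, and socs3 is induced by STAT3 downstream of interleukin-6 type cytokines. Among 15 SOCS rows, 0 passed at stage 14 and 1 passed at stage 17 by the authors' deposited tables, with 1 and 4 at an unadjusted p-value under 0.05. Of all genes, 18.0% and 19.8% reached that unadjusted level, the SOCS rows are few, and no test was made between them. All 4 such SOCS rows at stage 17 were copies of socs3 or of the related socs3l, and all were positive. The called gene socs3l.L had arms at 172 and 39.1 normalised counts at stage 17 and its log2 fold change was 2.13 (SE 0.59, adjusted p-value 0.00577) in the authors' deposited table. The arms of socs3l.S were at 177 and 70.6 normalised counts, with 1.33 (SE 0.59, adjusted p-value 0.151) per the authors' deposited table. The arms of socs3.L were at 102 and 14.8 normalised counts, with 2.79 (SE 1.18, adjusted p-value 0.126), and those of socs3.S at 59.7 and 7.04, with 3.08 (SE 1.35, adjusted p-value 0.142), by the authors' deposited table. Both SEs were large for their level at stage 17. They were larger than those of 98% (socs3.L) and 94% (socs3.S) of the 500 genes with the nearest mean count.

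At stage 14 the 4 copies did not share a direction. The authors' deposited table gave -2.21 (SE 2.19) for socs3.L, 0.77 (SE 2.14) for socs3.S, 0.95 (SE 0.91) for socs3l.L and 1.34 (SE 0.59, adjusted p-value 0.157) for socs3l.S. For socs1.L, the inhibitor most tied to interferon signalling, the authors' deposited tables gave 0.18 (SE 0.56) and 0.11 (SE 0.47), and for socs1.S -1.90 (SE 1.48) and -0.41 (SE 1.81). The remaining SOCS genes, socs2 and socs4 to socs7, had log2 fold changes between -1.11 and 0.79 at stage 14 and between -0.68 and 0.54 at stage 17, and no row of theirs had an unadjusted p-value under 0.05.

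A list of other JAK-STAT receptors, adaptors and inhibitors was represented by 51 and 54 rows, with medians of -0.04 and 0.19. By the authors' deposited tables, 3 of 49 tested rows were past the threshold at stage 14, 1 positive and 2 negative, and 3 of 47 at stage 17, all positive. At stage 17 the called rows included both copies of the kinase gene pim1, a known STAT target, with 1.20 (SE 0.32, adjusted p-value 0.00372) for pim1.L and 1.09 (SE 0.30, adjusted p-value 0.00584) for pim1.S per the authors' deposited table. At stage 14 they had -0.12 (SE 0.35) and -0.05 (SE 0.35). The SOCS-family inhibitor cish, another STAT target, had 3.27 (SE 1.32, adjusted p-value 0.101) for cish.L at stage 17 per the authors' deposited table. For cish.S it was 4.36 (SE 1.96, adjusted p-value 0.158), and neither copy was past the threshold. The denominator arm of cish.S was at the floor, and its numerator arm at 9.21-fold the floor. At stage 14 cish.L already had 2.37 (SE 1.43) and cish.S had 0.17 (SE 1.75) per the authors' deposited table. Between the stages cish.L differed by only 0.90 (SE 1.94). The gene cish was singled out after its values were seen. The rows mcl1.L, mcl1.S, bcl6.L, bcl6.S and pim3.L of this list were not past the threshold at stage 17. Their log2 fold changes there ran from -0.03 to 1.49 per the authors' deposited table. The kinase gene pim3.S, related to pim1, was called at stage 14, at -1.68 (SE 0.38, adjusted p-value 3.84e-04), and had 0.14 (SE 0.36) at stage 17 by the authors' deposited tables. The FGF signalling inhibitor il17rd.S was positive and past the threshold at both stages, at 1.36 (SE 0.39, adjusted p-value 0.00941) and 1.32 (SE 0.45, adjusted p-value 0.0414) in the authors' deposited tables. The prolactin receptor gene prlr.S was at the floor in the numerator arm at stage 14, and its denominator arm was at 11.9-fold the floor. Its log2 fold change there was -5.02 (SE 1.63, adjusted p-value 0.0290) per the authors' deposited table.

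**Figure D4:**
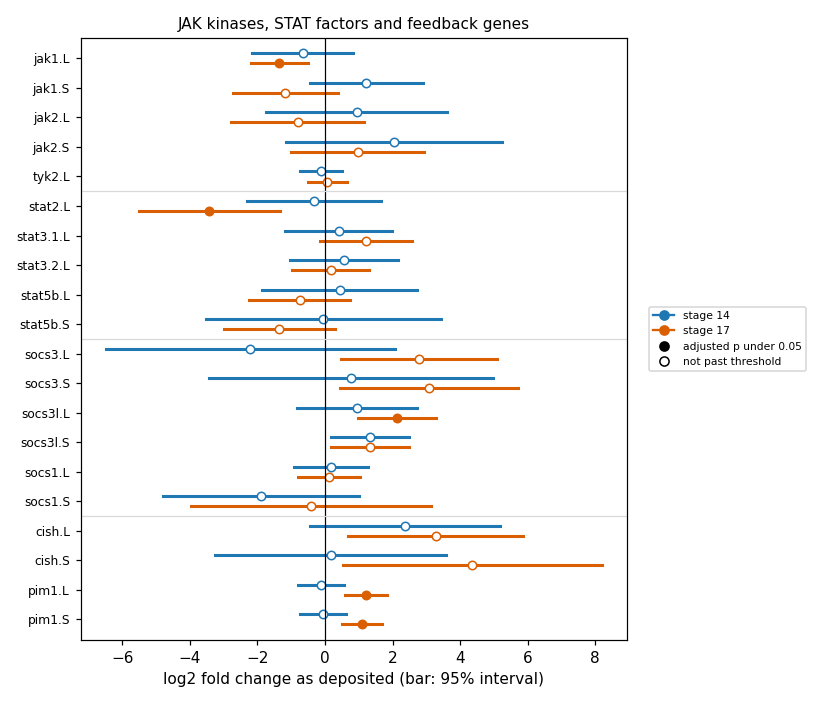
Log2 fold changes as deposited (horizontal axis) with their 95% intervals for JAK kinases, STAT factors, the socs3 and socs1 copies, and the STAT targets cish and pim1 (rows), stage 14 in blue and stage 17 in orange, with filled points past the threshold. At stage 17 jak1.L and stat2.L are negative and filled, and socs3l.L, pim1.L and pim1.S are positive and filled. Of the list of other JAK-STAT genes, only cish and pim1 were picked for drawing. The rows of mcl1, bcl6 and pim3, not past the threshold at stage 17, are not drawn.

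A list of other NF-kB pathway adaptors, kinases, feedback genes and targets was represented by 53 and 52 rows, with medians of -0.04 and -0.19. By the authors' deposited tables, 1 of 46 tested rows was past the threshold at stage 14, with 3 at an unadjusted p-value under 0.05, and 4 of 46 at stage 17, 2 positive and 2 negative. The prostaglandin synthase gene ptgs2.S (COX-2) was called at both stages with opposite signs, at -0.94 (SE 0.25, adjusted p-value 0.00339) at stage 14 and 1.49 (SE 0.36, adjusted p-value 0.00104) at stage 17 by the authors' deposited tables. Its arms were at 6037 and 11556 normalised counts at stage 14 and at 3012 and 1069 at stage 17. At stage 17 the chemokine gene cxcl8.L, a classical NF-kB target, was at the floor in the numerator arm. Its denominator arm was at 34.3 normalised counts, 11.4-fold the floor. The log2 fold change of cxcl8.L was -4.56 (SE 1.57, adjusted p-value 0.0421) in the authors' deposited table. The ubiquitin ligase gene birc2.S had 0.96 (SE 0.34, adjusted p-value 0.0499), at the edge of the threshold, and ube2v1.L, whose product helps TRAF6 build ubiquitin chains, had -1.43 (SE 0.47, adjusted p-value 0.0318) per the authors' deposited table. Their homeologs were not past the threshold at that stage, with -0.25 (SE 0.29) for birc2.L, of opposite sign, and -0.56 (SE 0.49) for ube2v1.S. The cytokine genes tnf.S and il1b.S had means of at most 16.1 normalised counts by the authors' deposited tables, and the 95% intervals of their log2 fold changes all included 0. Among rows of this list with no p-value at stage 14, bcl3.L and bcl3.S were positive, at 21.4 (SE 3.91) and 6.19 (SE 2.58) per the authors' deposited table. Their means were low, at 23.8 and 12.3 normalised counts, and their denominator arms were at the floor. These log2 fold changes therefore do not give the size of a difference, and without a p-value neither row could be called. At stage 17 bcl3.L had 3.99 (SE 2.25, adjusted p-value 0.306) by the authors' deposited table.

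The name rule also took in 9 rows whose symbols only extend a family name. The product of irf2bpl is a nuclear protein linked to neural development in humans, and irf2bpl.S was past the threshold at stage 14. Its arms were at 228 and 536 normalised counts, and the log2 fold change was -1.23 (SE 0.42, adjusted p-value 0.0381) in the authors' deposited table, and irf2bpl.L had -0.80 (SE 0.30, adjusted p-value 0.0746). At stage 17 they had -0.48 (SE 0.30) and -0.21 (SE 0.27) per the authors' deposited table. The gene traf3ip1 encodes a protein of intraflagellar transport in cilia. In the authors' deposited tables traf3ip1.S had -0.87 (SE 0.59) at stage 14 and -1.65 (SE 0.76, adjusted p-value 0.176) at stage 17, and traf3ip1.L -0.44 (SE 0.59) and -0.84 (SE 0.43, adjusted p-value 0.237). Without these rows, 5 signalling genes were past the threshold at each stage.

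Between the stages, 78 members could be compared. Their log2 fold changes by the authors' deposited tables had the same sign at both stages for 55 (70.5%), against 66.2% of all genes, and the Spearman correlation across genes was 0.39 for the members and 0.46 for all genes, a description over genes that are not independent and share their libraries. The difference between stages, tested as the stage 17 minus the stage 14 value over the root of the summed squared SEs with a two-sided normal p-value and Benjamini-Hochberg adjustment over 16194 genes, was past 0.05 for 1 of the 78 members, against 1.51% of all genes. Without adjustment, 6 (7.69%) had p-values below 0.05, against 8.58%. The stage and the batch label coincide, so that they cannot be told apart.

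For the members named here, a difference between the stages was not shown. It was -1.61 (SE 0.81, adjusted p-value 0.565) for traf4.L, -3.09 (SE 1.46, adjusted p-value 0.498) for stat2.L and 5.00 (SE 2.48, adjusted p-value 0.554) for socs3.L. Of the other pathway genes that were called at a stage, ptgs2.S differed between stages by 2.43 (SE 0.43, adjusted p-value 1.75e-05) and pim3.S by 1.82 (SE 0.52, adjusted p-value 0.0374), while pim1.L at 1.32 (SE 0.47, adjusted p-value 0.175) and pim1.S at 1.14 (SE 0.46, adjusted p-value 0.311) did not pass.

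**Figure D5:**
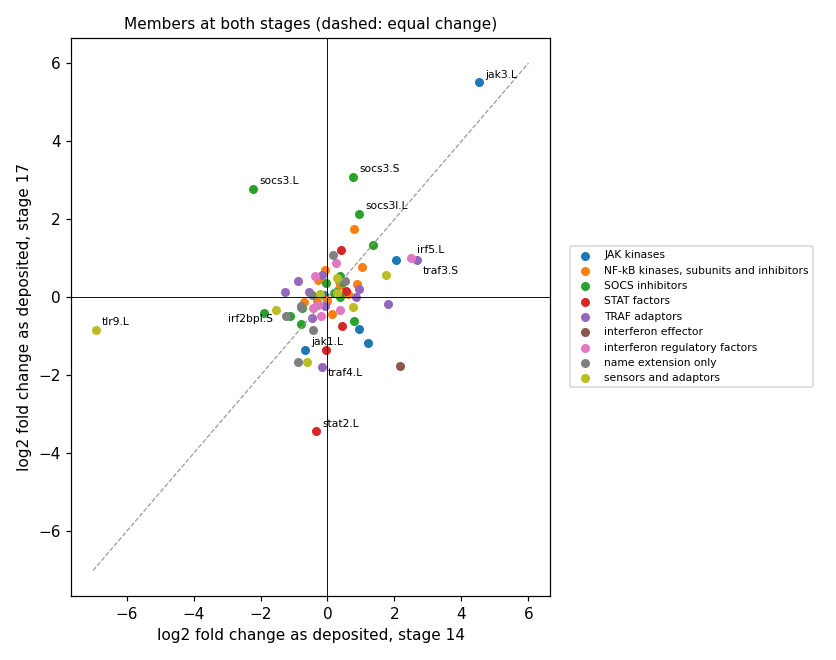
Log2 fold change as deposited at stage 17 (vertical axis) against stage 14 (horizontal axis) for 74 members with an adjusted p-value at both stages, coloured by role, with a dashed line of equal change and names for called members, socs3.L, socs3.S and jak3.L. The point of stat2.L lies near 0 on the horizontal axis, at -0.33, and at -3.43 on the vertical one.

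Of 32 homeolog pairs among the members, 14 (43.8%) shared a sign at stage 14 and 17 (53.1%) did so later, at stage 17, in the authors' deposited tables, against 62.9% of 5740 and 66.5% of 5941 pairs over all genes. No homeolog pair among the members had both copies past the threshold. Few members were past it, and the share of such pairs over all genes was not computed, so this count cannot be read as a trait of the members. Counting can divide reads between homeologs, so a single copy's values carry that extra uncertainty.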

How the data were processed

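RNA sequencing was performed on 12 samples of Xenopus laevis neural crest tissue in 4 groups of 3. The submitters' processing notes name STAR 2.7.3a and DESeq2. Genome build, annotation and filters are not given in the sources used here. The authors deposited 1 comparison table per stage. Each holds a mean normalised count, a signal scaled between libraries, the log2 fold change, its standard error, a score that is their ratio, and the p-value before and after adjustment, per the file headers. Each table was assigned its arms by the labels of that stage's samples. With no values per sample, depth per library is unknown, and the authors' adjusted p-values were used as planned, at a threshold of 0.05. They rest on 17088 genes at stage 14 and 22197 at stage 17, of which 5232 were not analysed here.

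The 95% intervals, arm levels and the test between stages were computed with Python 3.11.15, pandas 2.3.3 and scipy 1.17.1. P-values weigh the difference between the arms against the spread between the samples of an arm, which may be technical. The members and lists were chosen with earlier results of these data known. Named were all members past a threshold, up to 20 more with an unadjusted p-value under 0.05, central genes whatever their values, and up to 6 called genes per list and stage. All 86 symbols matched RefSeq. Alternatives were other thresholds, adjustments, filters and centring. Sample columns of no known sample numbered 0, since no column held a single sample. A few members are counted but not reported by name or drawn here.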

Additional observations from a re-analysis of the deposited data

How the results depend on the processing

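At an adjusted p threshold of 0.01 the members past it fell to 2 at stage 14 and 3 at stage 17, by the stricter threshold itself. Counts at a threshold of 0.1 (9 and 5), with the adjustment over every p-value in the table (6 and 5), over genes with a mean of at least 10 normalised counts (6 and 5), with absolute log2 fold changes from 1 upwards (6 and 5) and without name extensions (5 and 5) stayed within 1.5 times the counts given, and the count for the difference between stages was 1 under its 3 alternatives. The median log2 fold change of the members ranged from 0.15 to 0.17 at stage 14 and from 0.02 to 0.07 at stage 17. Among 334 repeats for single named genes, 6 calls were lost at 0.01 and 3 were gained at 0.1. Leaving out replicates was not run, because the tables hold no values per sample. No paired analysis was possible because the groups share no replicate numbers and the tables carry none. Depth per library is unknown, and what sets the width of the members' intervals was not tested.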
